A study of Mus musculus with 9 samples.

Results

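Integrins are cell-surface receptors made of an alpha and a beta subunit. In cells enriched for megakaryocytes, 10 of their genes were followed here in irradiated mice and controls: Itga1, Itga5, Itga6, Itgav, Itgam, Itgb1, Itgb2, Itgb5, Itgb7 and Itgb8. They were chosen by name as subunits that bind matrix proteins or serve leukocytes, out of 37316 gene names on the array. The array carried 27 probes for them, and 25 passed the filter on dim signals, so that each of the 10 genes had at least 1 tested probe. The 3 groups were bone marrow megakaryocytes of male mice that served as controls (Ctrl) or were sampled at 1 or 3 days after 5 Gy of gamma rays (1 dpi and 3 dpi), with 3 arrays in each group and different donors in each experiment. The labels give neither strain nor age; the study's methods list wild-type C57BL/6 mice, total body exposure to a cobalt source, sham-irradiated controls, and enrichment of the cells by CD41 and then CD42d. The methods describe an Affymetrix chip, while the files come from Agilent arrays with a single dye, and the values here are those of the files.

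An integrin pairs its subunits outside the cell to grip a ligand and joins the actin skeleton inside it through talin, kindlin and their partners. Megakaryocytes and platelets are best known for the fibrinogen receptor made of Itga2b and Itgb3, but they also use collagen, laminin and fibronectin receptors to sit on marrow matrix and vessel walls. The leukocyte integrins built on Itgb2 and Itgb7 instead bind adhesion molecules of other cells, and integrins with Itgav, among them that with Itgb8, can release active TGF-beta from its latent complex.

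Every level below is a log2 intensity minus the 75th percentile of its own array, so a level of 0 lies at that percentile, and levels of different probes were not compared, apart from the choice of the brightest probe of a gene and the sums and highest signals of the marker lists. The percentile itself, in log2 intensity, was 10.03, 10.62 and 10.66 on the Ctrl arrays, 9.33, 9.45 and 9.43 at 1 dpi, and 10.37, 10.55 and 10.53 at 3 dpi, so the 1 dpi arrays were the dimmest. Ctrl replicate 1 stood apart from the other arrays: it was alone on its slide, with the other 8 arrays on the second slide, and 69.1% of its spots were well above background against 72.3% to 81.8% elsewhere. For that reason the central values are also given without it. A probe was called when limma gave a Benjamini-Hochberg adjusted p under 0.05 over 44300 tested probes and the change was 2-fold or more. For a single value an exact permutation test of 3 arrays against 3 could not go below p = 0.10. The comparisons of 1 dpi and of 3 dpi with Ctrl share the same Ctrl arrays.

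At 1 dpi against Ctrl, 2 of the 25 integrin probes were called higher, 8%, where 11.6% of all probes were, and 1 was called lower, 4%, where 3.02% of all probes were. At 3 dpi against Ctrl, 3 of the 25 were called higher, 12%, beside 6.58% of all probes, and 0 were called lower, beside 1.86%. Between 1 and 3 dpi, 2 were higher and 1 was lower at 3 dpi, beside 3.75% and 5.03% of all probes. With counts this small, the shares of the integrin probes lay near those of all probes, and the list as a whole was not set apart by its calls. With 1 probe per gene, the brightest, the calls at 1 dpi were 1 of the 10 genes upward and 1 downward (12.4% and 2.88% of all 29410 genes). At 3 dpi they were 1 and 0 (7.02% and 1.82%), and for 3 dpi against 1 dpi 1 and 1 (4.02% and 4.85%).

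The scaling left the median change of all probes away from 0, at 0.22 log2 for 1 dpi against Ctrl, 0.07 for 3 dpi against Ctrl and −0.13 for 3 dpi against 1 dpi. The medians of the 25 integrin probes were 0.02, 0.15 and 0.04. With the array median in place of the 75th percentile, the median of all probes at 1 dpi moved to −0.12, and the share of called probes that were higher dropped from 79.3% to 41.6%. The same change of scaling took that share from 78.0% to 67.1% at 3 dpi against Ctrl and from 42.7% to 67.5% at 3 dpi against 1 dpi. Small changes, well under 1 log2 unit, therefore depend on the scaling, and for each probe whose levels are given on every array the change relative to the median of all probes is given as well.

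**Figure D1:**
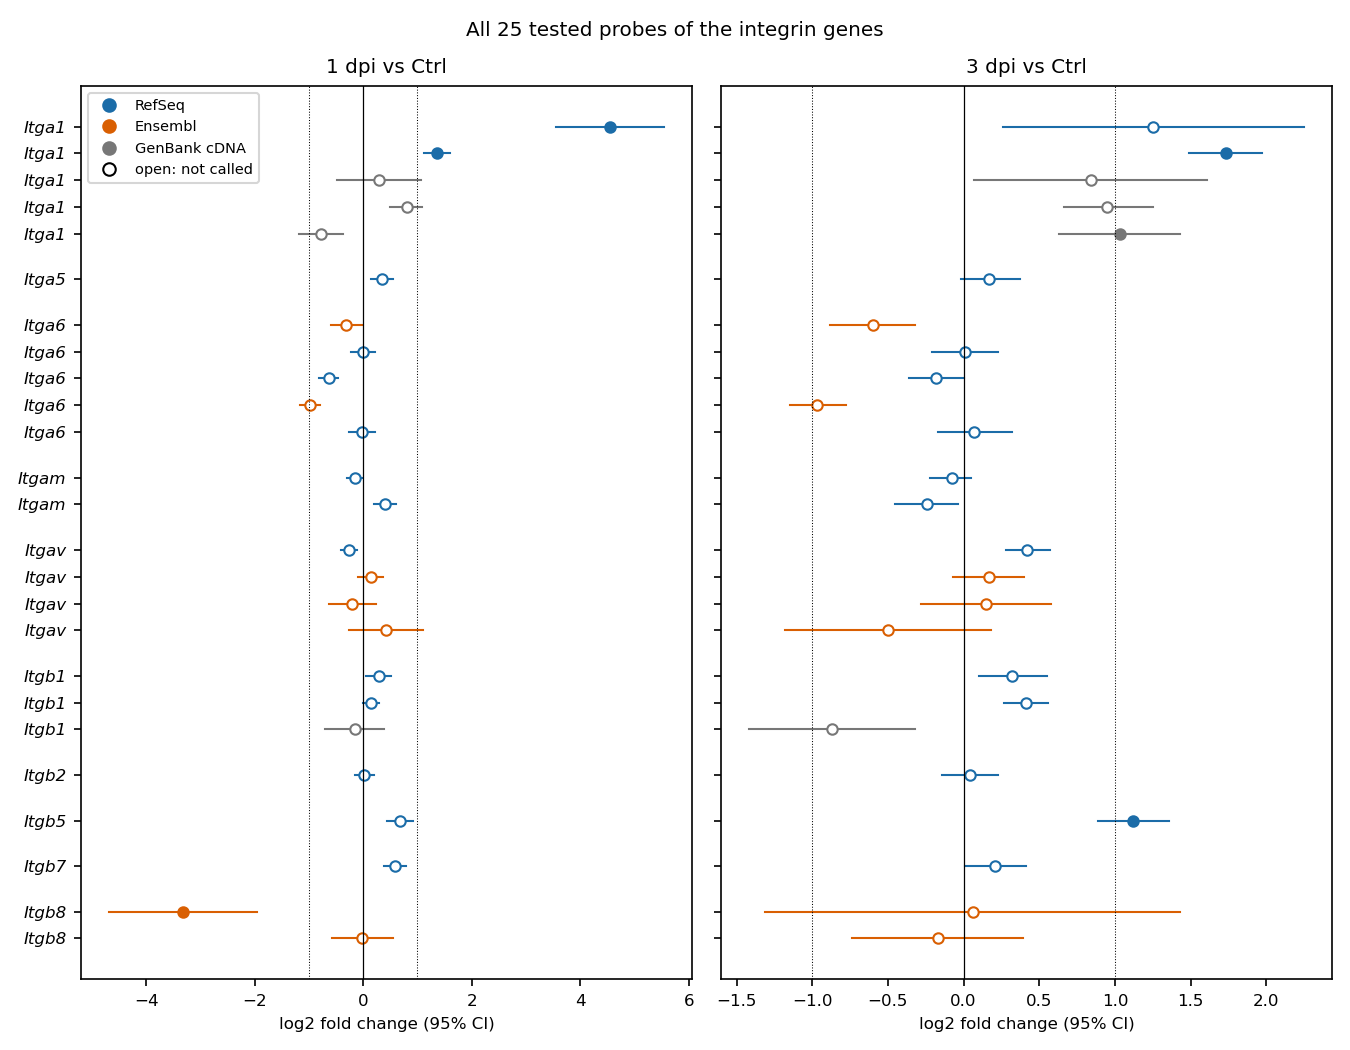
Log2 fold change with its 95% confidence interval for every tested integrin probe, at 1 and 3 dpi against Ctrl. Colours give the kind of transcript the probe was named from, filled points were called, and dotted lines mark a 2-fold change; the panels have different horizontal scales.

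Most of the points lie between the dotted lines, and the probes of 1 gene are often spread over both sides of 0. The Itga1 probes all lie to the right at 3 dpi but spread widely at 1 dpi, and the called Itgb8 probe stands alone far to the left at 1 dpi.

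Itga1 encodes the alpha subunit that pairs with Itgb1 into a collagen and laminin receptor. Its 5 probes were all tested. Both probes named from the RefSeq transcript cross a splice junction on the minus strand of chromosome 13 (mm9), and they are shown because they gave changes of very different size for the same transcript; no part is in capitals, since nothing is compared within them.
A_52_P518922, chr13:115821387-115825525: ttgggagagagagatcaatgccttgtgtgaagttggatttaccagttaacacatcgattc
A_52_P459929, chr13:115756765-115758419: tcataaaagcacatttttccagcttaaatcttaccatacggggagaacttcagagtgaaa

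On A_52_P518922, which begins at base 683 of its transcript, the Itga1 levels were −3.50, −2.08 and −1.67 in Ctrl, 2.49, 1.89 and 2.02 at 1 dpi, and −1.33, −1.17 and −1 at 3 dpi. All 1 dpi arrays lay far above both other groups, the 3 dpi arrays lay just above Ctrl, and the groups did not overlap, although Ctrl replicate 1 was low among the controls. At 1 dpi the change was 4.55 log2 (SE 0.43, 95% confidence interval 3.56 to 5.55), a 23.5-fold rise with an adjusted p of 0.00011, or 4.33 relative to the median of all probes. At 3 dpi it was 1.25 (0.26 to 2.25) with an adjusted p of 0.059, which was not called, or 1.18 relative to the median. It was called, at 1.01 to 1.25, with array median scaling, quantile normalization, normexp and the 75th percentile, in the deposited table and with only probes well above background on all 9 arrays, and at 1.62 without Ctrl replicate 3. From 1 to 3 dpi this probe fell by 3.30 log2, with an adjusted p of 0.00069. Without Ctrl replicate 1 the change was 4.01 at 1 dpi and 0.71 at 3 dpi.

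On A_52_P459929, which begins at base 3710 of the same transcript, the levels were −2.86, −2.96 and −3.00 in Ctrl, −1.54, −1.62 and −1.58 at 1 dpi, and −0.98, −1.31 and −1.35 at 3 dpi. Here the order was Ctrl, then 1 dpi, then 3 dpi, with tight groups that did not overlap. The rise was 1.36 log2 (1.12 to 1.60) at 1 dpi, 2.57-fold, with an adjusted p of 3.9e-05. It was 1.73 (1.49 to 1.97) at 3 dpi, 3.31-fold, with an adjusted p of 1.2e-05, and the step from 1 to 3 dpi was 0.36. Relative to the median of all probes the rises were 1.14 and 1.66, and without Ctrl replicate 1 they were 1.40 and 1.77. With normexp and quantile normalization the rise at 1 dpi was 0.94, under 2-fold.

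The other 3 Itga1 probes were named from GenBank cDNAs, and each matches an unspliced stretch of the gene. A_55_P2734577 rose by 0.80 at 1 dpi and 0.95 at 3 dpi, with adjusted p of 0.0013 and 0.00086, just short of 2-fold, and was called at 3 dpi when 3 dpi replicate 2 (1.05) or 3 was left out. Under other alternatives its rise was as small as 0.22 at 1 dpi and 0.45 at 3 dpi. A_52_P245620 was at 0.29 and 0.84, with adjusted p of 0.47 and 0.092, and at 1 dpi had 1 array, at −2.88, well above the other pair at −4.33 and −4.12. Its 1 dpi value was −0.16 without that array, replicate 3, and also turned negative with array median scaling and with quantile normalization, with or without normexp. With normexp and the 75th percentile that value was 0.52 (adjusted p 0.0057). The adjusted p of its 3 dpi change was 0.00068 without 1 dpi replicate 3 and 0.0014 with only the 2 groups compared, at 0.84 in both. It was 0.017 with normexp and the 75th percentile, at 0.51. A_55_P2738827 at chr13:115824308-115824367 (mm9), within the stretch that the spliced A_52_P518922 skips, was lower at 1 dpi. Its levels were −5.17, −4.77 and −5.00 in Ctrl, −5.53, −5.59 and −6.14 at 1 dpi, where only 1 of the 3 arrays was well above background, and −3.89, −3.90 and −4.05 at 3 dpi. The 1 dpi arrays were thus the lowest and the 3 dpi arrays the highest, with no overlap. The change was −0.77 at 1 dpi (adjusted p 0.0068), 1.03 at 3 dpi (0.63 to 1.43, adjusted p 0.0028, called) and 1.81 from 1 to 3 dpi, and relative to the median of all probes it was −1 and 0.96 against Ctrl. The fall at 1 dpi was called with array median scaling (−1.12) and quantile normalization (−1.30), but with normexp and the 75th percentile its direction reversed, to 0.38, and the step from 1 to 3 dpi was 0.11 (adjusted p 0.29). The call at 3 dpi was lost without Ctrl replicate 1 (0.94) and with array median scaling, quantile normalization or normexp, where the change was 0.38 to 0.89.

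At 3 dpi the changes of all 5 Itga1 probes were positive, between 0.84 and 1.73 log2, 3 had an adjusted p under 0.05 and 2 were called. At 1 dpi 3 rose and 1 fell with an adjusted p under 0.05, A_52_P245620 did not pass, and the range was −0.77 to 4.55. The 1 that fell, A_55_P2738827, was well above background on only 1 of 3 arrays there. Its direction reversed with normexp and the 75th percentile. The signs thus matched at 3 dpi, and the sizes were furthest apart at 1 dpi.

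**Figure D2:**
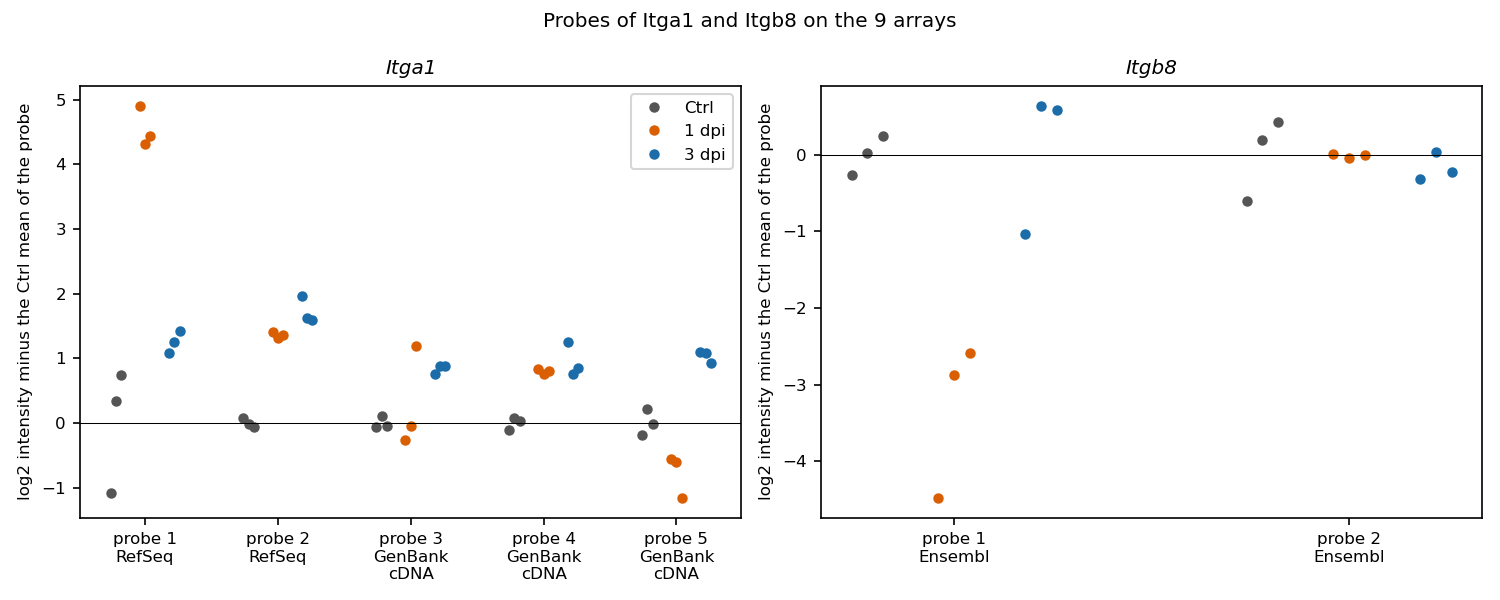
Levels of each tested probe of Itga1 and Itgb8 on the 9 arrays, each set to the mean of its own Ctrl arrays. Itga1 probes 1 to 5 are A_52_P518922, A_52_P459929, A_52_P245620, A_55_P2734577 and A_55_P2738827; Itgb8 probes 1 and 2 are A_51_P479519 and A_52_P164473.

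The 1 dpi points of Itga1 run from far above the line on probe 1 to below it on probe 5, whereas the 3 dpi points stay above it on all 5. For Itgb8 the fall at 1 dpi is seen on probe 1 only.

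Itga6 encodes the laminin-binding alpha subunit, which pairs with Itgb1 or Itgb4. With the 75th percentile scaling none of its 5 probes was called in any comparison. On the brightest, the Ensembl transcript probe A_55_P1958840, levels were 4.88, 5.33 and 5.28 in Ctrl, 4.87, 4.87 and 4.83 at 1 dpi, and 4.65, 4.5 and 4.55 at 3 dpi. The order ran down from Ctrl to 3 dpi, with Ctrl replicate 1 at the level of the 1 dpi arrays. The change was −0.31 at 1 dpi (adjusted p 0.056) and −0.60 at 3 dpi (−0.88 to −0.32, adjusted p 0.0062), or −0.53 and −0.67 relative to the median of all probes, and −0.45 (adjusted p 0.0011) and −0.74 without Ctrl replicate 1. A second Ensembl transcript probe, A_52_P324934, came nearest to a call, with −0.98 at 1 dpi (−1.17 to −0.80, adjusted p 5.5e-05) and −0.97 at 3 dpi (adjusted p 7.1e-05), both just under 2-fold. Relative to the median of all probes these were −1.20 and −1.04. The probe was called at 1 dpi with array median scaling (−1.33), with quantile normalization and in the deposited table (−1.17 each), with the 75th percentile over all probes, and without Ctrl replicate 2 (−1.01) or 1 dpi replicate 2 (−1.01) or 3 (−1.03). At 3 dpi it was called with array median scaling (−1.11). Under other alternatives the change was as small as −0.63 at 1 dpi and −0.78 at 3 dpi.

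Of the 3 RefSeq probes of Itga6, 2 stayed near 0 with this scaling. A_55_P2015670 changed by −0.01 and 0.01, and A_65_P04508 by −0.02 and 0.07, with intervals within 0.32 of 0, although A_65_P04508 was at −0.37 at 1 dpi with array median scaling (adjusted p 0.033) and at 0.33 with normexp and the 75th percentile (adjusted p 0.0013). A_55_P2742291 fell by 0.63 at 1 dpi (adjusted p 0.00033) but had returned to −0.18 at 3 dpi (adjusted p 0.11). At 1 dpi all 5 changes were negative, from −0.98 to −0.01, and 2 had an adjusted p under 0.05; at 3 dpi 3 were negative and 2 positive.

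Itga5 encodes the alpha subunit of the classical fibronectin receptor and had a single probe. Its levels were −2.97, −2.86 and −2.99 in Ctrl, −2.63, −2.66 and −2.48 at 1 dpi, and −2.64, −2.84 and −2.82 at 3 dpi. Both irradiated groups lay above Ctrl with little room between, and they overlapped each other. The changes were 0.35 at 1 dpi (0.15 to 0.55, adjusted p 0.0097) and 0.17 at 3 dpi (adjusted p 0.16), or 0.13 and 0.10 relative to the median of all probes. With quantile normalization the 1 dpi change was 0.11 (adjusted p 0.36), and with array median scaling it was 0.0 (adjusted p 0.98).

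Itgav encodes the alpha subunit of the vitronectin receptors, which recognise the RGD motif of many ligands. On its brightest probe, the RefSeq probe A_55_P2637546, levels were 1.55, 1.44 and 1.41 in Ctrl, 1.19, 1.21 and 1.21 at 1 dpi, and 1.91, 1.93 and 1.84 at 3 dpi. The groups were separate, with 1 dpi lowest and 3 dpi highest. The change was −0.27 at 1 dpi (−0.41 to −0.12, adjusted p 0.0081), 0.42 at 3 dpi (0.28 to 0.57, adjusted p 0.0014) and 0.69 from 1 to 3 dpi (adjusted p 0.00014). All were under 2-fold, the first 2 were −0.49 and 0.35 relative to the median of all probes, and with array median scaling that at 3 dpi was 0.28 (adjusted p 0.19). The other 3 probes, named from Ensembl transcripts, changed by −0.20 to 0.42 at 1 dpi and by −0.50 to 0.17 at 3 dpi, with overlapping groups and adjusted p of at least 0.24. Among them A_52_P102916 was at 0.42 and −0.50, with an adjusted p of 0.24 each. Its 1 dpi value turned to −0.06 in the deposited table, but was 0.66 (adjusted p 1.2e-05) with normexp and the 75th percentile. Without Ctrl replicate 1 its changes at 1 and 3 dpi were 0.12 and −0.80, the latter with an adjusted p of 0.034. From 1 to 3 dpi it was at −0.92 without overlap (adjusted p 0.034), against the rise of the RefSeq probe. The adjusted p passed 0.05 when any of 5 single arrays was left out, but without 3 dpi replicate 2 the step was called (−1.06, adjusted p 0.047).

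Itgb1 encodes the beta subunit shared by the collagen, laminin and fibronectin receptors. Of its 3 probes, 2 were named from the RefSeq transcript and 1 from a cDNA that the array files describe as beta1D, a splice form with another cytoplasmic tail known from striated muscle. A RefSeq probe and the beta1D probe are shown because they moved in opposite directions at 3 dpi. Both cross a splice junction on chromosome 8 (mm9, plus strand), and capitals mark the longest stretch of bases, 23 long, that both contain; the beta1D probe is printed up to the end of that stretch.
A_66_P113059, chr8:131250081-131255976: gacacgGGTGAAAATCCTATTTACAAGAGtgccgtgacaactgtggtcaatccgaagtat
A_52_P69236, chr8:131250931-131255949: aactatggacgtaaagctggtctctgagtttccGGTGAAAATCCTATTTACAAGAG

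On A_66_P113059 the Itgb1 levels were 0.82, 0.76 and 0.72 in Ctrl, 0.97, 0.84 and 0.93 at 1 dpi, and 1.22, 1.15 and 1.16 at 3 dpi. They rose in that order without overlap. The change was 0.15 at 1 dpi (adjusted p 0.079) and 0.41 at 3 dpi (0.27 to 0.56, adjusted p 0.0018). The other RefSeq probe, A_55_P2902886, rose by 0.29 and 0.32, each with an adjusted p of 0.036. Relative to the median of all probes the changes at 1 dpi were near 0, at −0.07 and 0.07, and those at 3 dpi were 0.34 and 0.25. With array median scaling neither had an adjusted p under 0.05 at 3 dpi (0.27 and 0.18), and that of A_55_P2902886 also passed 0.05 when most single arrays were left out.

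On the beta1D probe A_52_P69236 levels were −4.46, −4.17 and −4.52 in Ctrl, −4.68, −4.21 and −4.75 at 1 dpi, and −5.74, −4.92 and −5.10 at 3 dpi. Ctrl and 1 dpi overlapped, and all 3 dpi arrays were below them. The change was −0.16 at 1 dpi (−0.71 to 0.39) and −0.87 at 3 dpi (−1.42 to −0.32, adjusted p 0.025), not called, or −0.38 and −0.94 relative to the median of all probes. It was called at 3 dpi with array median scaling (−1.01), with quantile normalization (−1.08), in the deposited table (−1.07) and without 3 dpi replicate 2 (−1.04), while without Ctrl replicate 2 it was at −0.76 (adjusted p 0.076). The fall at 3 dpi was as small as −0.62 when single arrays were left out and as small as −0.40 under the other alternatives. At 3 dpi the 3 Itgb1 probes all had an adjusted p under 0.05 with the 75th percentile scaling, with 2 rising and 1 falling.

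Itgb5 encodes a beta subunit that pairs with Itgav and binds vitronectin. Its single RefSeq probe had levels of 0.73, 0.64 and 0.50 in Ctrl, 1.33, 1.29 and 1.27 at 1 dpi, and 1.94, 1.68 and 1.61 at 3 dpi. Each group lay wholly above the one before it. The change was 0.67 at 1 dpi (0.44 to 0.91, 1.60-fold, adjusted p 0.00098), under the 2-fold threshold. At 3 dpi it was 1.12 (0.89 to 1.36, 2.18-fold, adjusted p 0.00011), which was called, and the step from 1 to 3 dpi was 0.45 (adjusted p 0.0083). Relative to the median of all probes the changes were 0.45 and 1.05, and without Ctrl replicate 1 they were 0.73 and 1.17. With array median scaling they were 0.33 (adjusted p 0.12) and 0.98, and the call at 3 dpi was lost.

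Itgb8 also pairs with Itgav and is known for activating latent TGF-beta. On the Ensembl transcript probe A_51_P479519, at chr12:120426719-120426778 (mm9), levels were −0.80, −0.52 and −0.30 in Ctrl, −5.02, −3.42 and −3.13 at 1 dpi, and −1.58, 0.10 and 0.04 at 3 dpi. All 1 dpi arrays were far below the rest, with replicate 1 the lowest, and Ctrl and 3 dpi overlapped, with 3 dpi replicate 1 below every control. The change at 1 dpi was −3.32 (SE 0.59, −4.69 to −1.95), a 9.96-fold fall with an adjusted p of 0.0023. At 3 dpi it was 0.06 (−1.31 to 1.43), and from 1 to 3 dpi it was 3.38, 10.4-fold, with an adjusted p of 0.0027. Without Ctrl replicate 1 the change at 1 dpi was −3.44, and relative to the median of all probes it was −3.54, with −0.01 at 3 dpi.

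The fall of Itgb8 rested on that probe alone. The second tested probe, the Ensembl transcript probe A_52_P164473, had levels of −4.23, −3.43 and −3.20 in Ctrl, −3.61, −3.67 and −3.63 at 1 dpi, and −3.94, −3.58 and −3.85 at 3 dpi. Its groups overlapped, and its change at 1 dpi was −0.02 (−0.58 to 0.55) and at 3 dpi −0.17 (adjusted p 0.62), or −0.24 relative to the median of all probes at both times. Without Ctrl replicate 1 they were −0.32 (adjusted p 0.054) and −0.48 (adjusted p 0.020), under 2-fold. The RefSeq probe A_55_P1998244 and the Ensembl transcript probe A_66_P139280 were well above background on 0 of 9 arrays, were not tested, and give no change.

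Among the leukocyte integrins, Itgb2 encodes the beta subunit common to the CD11 family. Its single probe had levels of 4.22, 4.02 and 4.03 in Ctrl, 4.08, 4.11 and 4.14 at 1 dpi, and 4.23, 4.07 and 4.10 at 3 dpi. The groups overlapped throughout. The changes of 0.02 (−0.16 to 0.20) and 0.04 (−0.14 to 0.23) left no room for a 2-fold change within the intervals, and relative to the median of all probes they were −0.20 and −0.03.

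Itgam encodes CD11b, the alpha subunit that pairs with Itgb2 on myeloid cells, and both of its probes were named from RefSeq. The brighter, A_55_P1977934, had levels of 4.01, 4.12 and 4.06 in Ctrl, 3.89, 3.92 and 3.88 at 1 dpi, and 4.02, 3.99 and 3.93 at 3 dpi. The 1 dpi arrays were slightly below the others, with a change of −0.16 (adjusted p 0.045) and of −0.08 at 3 dpi, or −0.39 and −0.15 relative to the median of all probes. The other, A_55_P1977926, had levels of −1.49, −1.60 and −1.54 in Ctrl, −0.96, −1.18 and −1.28 at 1 dpi, and −1.75, −1.79 and −1.81 at 3 dpi. Here 1 dpi was highest and 3 dpi lowest, without overlap, with changes of 0.40 (adjusted p 0.0063) and −0.24 (adjusted p 0.074), or 0.18 and −0.31 relative to the median. The probes of Itgam thus pointed in opposite directions at 1 dpi, each with an adjusted p under 0.05. With array median scaling the second was at 0.06 (adjusted p 0.76), and the adjusted p of the first passed 0.05 when most single arrays were left out.

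Itgb7 encodes the beta subunit that pairs with Itga4 or Itgae on lymphocytes and mast cells. Its levels were 3.17, 2.92 and 2.97 in Ctrl, 3.65, 3.60 and 3.60 at 1 dpi, and 3.35, 3.17 and 3.18 at 3 dpi. The 1 dpi arrays were above all others, and 3 dpi lay between them and Ctrl. The change was 0.59 at 1 dpi (0.39 to 0.79, adjusted p 0.00085), 0.21 at 3 dpi (adjusted p 0.10) and −0.38 from 1 to 3 dpi (adjusted p 0.0084). Relative to the median of all probes the changes against Ctrl were 0.37 and 0.14, and without Ctrl replicate 1 they were 0.67 and 0.29 (adjusted p 0.021). With array median scaling that at 1 dpi was 0.25 (adjusted p 0.23) and the step to 3 dpi −0.18 (adjusted p 0.41).

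**Figure D3:**
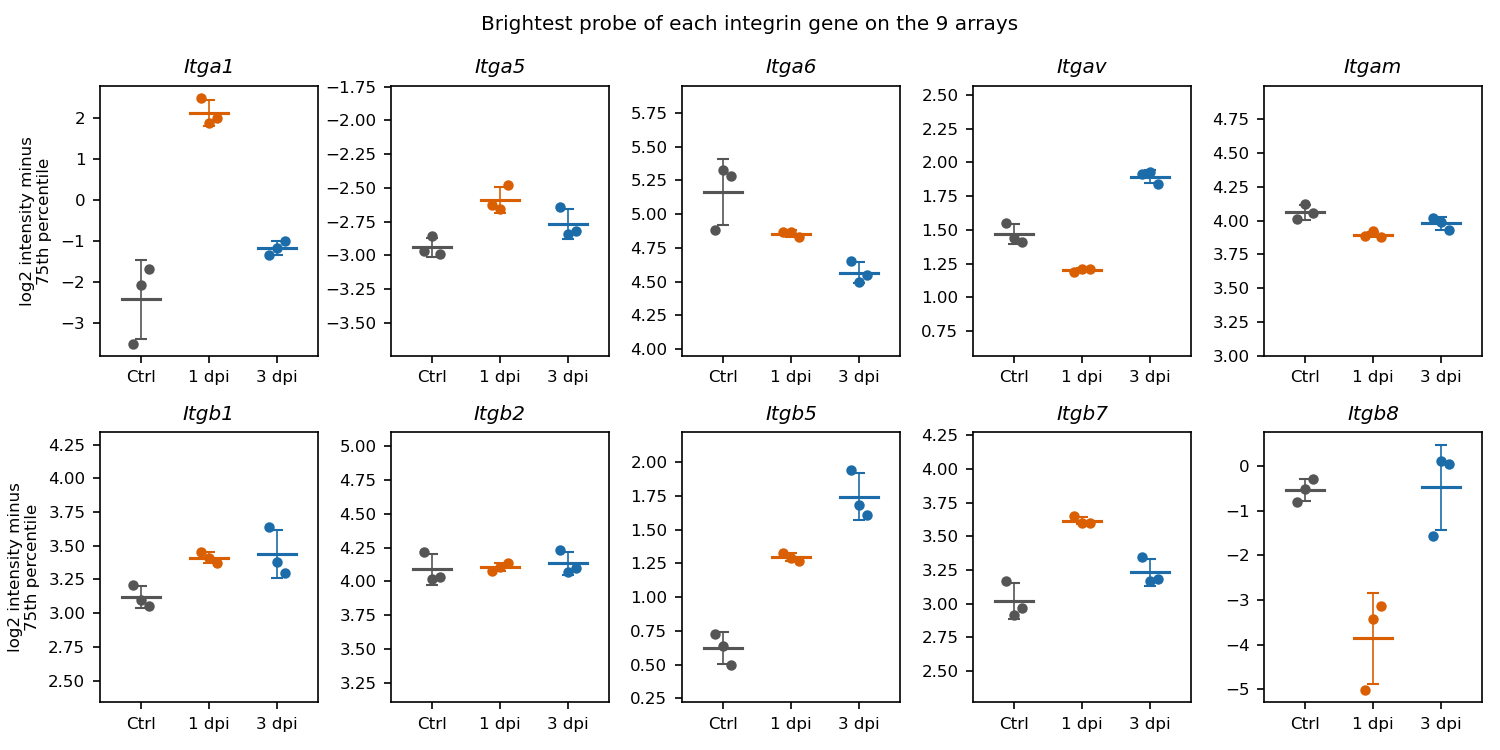
Level of the brightest tested probe of each integrin gene on the 9 arrays, with the mean and standard deviation of each group. Each panel has its own vertical scale.

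The panels show the orders side by side. On these probes Itgb5 climbs with time, Itga6 declines, Itga1 and Itgb7 peak at 1 dpi, Itgav and Itgb8 dip at 1 dpi, and Itgb2 is level. The other tested probes of Itga1, Itga6, Itgav and Itgb8 did not all follow these courses. The spread of the replicates is widest for Itga1 in Ctrl, with a standard deviation of 0.96, and for Itgb8 at 1 dpi, 1.02, and 3 dpi, 0.95.

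Of the 10 genes, 6 had more than 1 tested probe. At 1 dpi the tested probes shared a sign in Itga6 and Itgb8 and were split in Itga1, Itgav, Itgam and Itgb1. At 3 dpi they shared a sign in Itga1 and Itgam only. These signs include changes that did not pass the test, some of which turned under other scalings. The split of Itga1 at 1 dpi rested on A_55_P2738827 alone, which was close to background there. The deposited log2 table holds 1 value per gene name, and its value could be tied to 1 probe for each of the 10 genes, with a largest difference of at most 0.0021. For Itga1 and Itgb8 that was the probe with the large change, and for Itga6, Itgam, Itgav and Itgb1 it was not the brightest. Its value for Itgb1 is that of the beta1D probe, so a reading of the table alone gives Itgb1 as lower at 3 dpi, by −1.07 log2 (adjusted p 0.0132), where both RefSeq probes rose. For Itga1 it gives 4.45 at 1 dpi and 1.16 at 3 dpi, for Itga6 −1.17 and −0.97, and for Itgb8 −3.53 and 0.06.

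Among the partner subunits, Itga2b, which with Itgb3 forms the fibrinogen receptor, had levels of 0.38, 0.32 and 0.29 in Ctrl, 1.04, 1.04 and 0.98 at 1 dpi, and 0.19, 0.38 and 0.33 at 3 dpi. It was higher in every 1 dpi array, by 0.69 (0.53 to 0.85, adjusted p 0.00014), and was back at −0.03 at 3 dpi, or 0.47 and −0.10 relative to the median of all probes. Itgb3 changed by −0.17 and 0.14, with adjusted p of 0.16 and 0.32. Itga4, the partner of Itgb1 and Itgb7, fell by 0.40 and by 0.43 on its brightest probe, with its 5 other probes between −0.68 and 0.54 at 1 dpi. Itgal, a partner of Itgb2, rose by 0.78 at 1 dpi (adjusted p 0.0013) and was at 0.14 at 3 dpi, with its other probes at 1.08 and 1.28 at 1 dpi; none of these 4 genes was called on its brightest probe.

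Of the 16 other integrin subunits, all tested with 1 probe per gene, 3 rose and 1 fell past the threshold at 1 dpi, 1 and 0 did so at 3 dpi, and 2 and 0 did so from 1 to 3 dpi. Without Ctrl replicate 2 the counts at 3 dpi were 2 and 1, and without Ctrl replicate 3 or 3 dpi replicate 2 they were 1 and 1. Their medians were 0.41, 0.15 and −0.05. Itgad, a further alpha partner of Itgb2, fell by 2.87 at 1 dpi (adjusted p 1.2e-06) and rose by 3.03 from 1 to 3 dpi (adjusted p 5.8e-06). Its other probe moved alike, by −3.14 and 3.33. Itga10, a collagen-binding subunit, rose by 1.66 and Itga7, a laminin-binding one, by 1.03 at 1 dpi, both with an adjusted p of 0.048; the other Itga10 probe changed by 0.42. Ctrl replicate 1 was the lowest array for both genes, and without it the changes were 0.84 (adjusted p 0.0031) and 0.59 (adjusted p 0.068), under 2-fold. Leaving out 1 array ended the call of Itga10 for 7 of the 9 arrays and that of Itga7 for 8 of them. Itga11, another collagen-binding subunit, was at 3.01 at 1 dpi and 4.40 at 3 dpi against Ctrl. Its probe was well above background on only 2 of the 3 Ctrl arrays and passed the filter through the irradiated groups, where it was high, so these values, named after they were seen, are a description only. Without Itga11 the counts against Ctrl were 2 and 1 at 1 dpi and 0 and 0 at 3 dpi. It rose by 1.39 from 1 to 3 dpi (adjusted p 0.017), a call lost without 1 dpi replicate 2 (1.21, adjusted p 0.058) or 3 dpi replicate 1 (1.31, adjusted p 0.052). The other Itga11 probe changed by 0.29, 0.26 and −0.03 in these comparisons.

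Of the 30 genes of integrin activation and the adhesion complex, 29 were tested and Fermt1 was not. At 1 dpi 7 were higher and 0 lower, at 3 dpi 6 and 0, and between 1 and 3 dpi 0 and 0, with medians of 0.19, 0.11 and −0.04, where all genes had 0.25, 0.11 and −0.11. These counts against Ctrl include Parva, which was not well above background on every Ctrl array. Without it they were 6 and 5 higher. The share of all genes called higher was 12.4% at 1 dpi and 7.02% at 3 dpi. Fermt2, a kindlin that binds beta tails, rose by 2.66 at 1 dpi and 2.76 at 3 dpi, with adjusted p of 1.5e-06 and 9.2e-07. The adaptor Lims2 rose by 2.13 and 2.07, and the docking protein Bcar1 by 1.99 and 2.80, although the other Bcar1 probe rose by only 1.09 and 0.15. Ptk2, the focal adhesion kinase, rose by 1.58 and 1.12, and the paxillin relative Lpxn by 1.31 and 1.22; the other Ptk2 probes were at 0.70 and 2.07 at 1 dpi.

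Among the integrin pathway lists, the matrix ligands had the largest medians against Ctrl. Of 24, 23 were tested and Vtn was not. Of the 23, 16 were higher and 0 lower at 1 dpi, 17 and 0 at 3 dpi, and 6 and 1 at 3 dpi against 1 dpi. Without 1 dpi replicate 2 or 3 dpi replicate 2, the counts at 3 dpi against 1 dpi were 6 and 0. In each comparison with Ctrl, 19 of the 23 were well above background on every array of both groups. Among the called genes Lama1, Npnt and Col4a5 were not, and passed the filter through irradiated groups; over the 19, the counts were 13 and 0 at 1 dpi and 15 and 0 at 3 dpi. The medians were 1.70, 1.74 and 0.45, against the 0.25, 0.11 and −0.11 of all genes. The shares of all genes called higher in the 3 comparisons were 12.4%, 7.02% and 4.02%. At 1 dpi Tnc, tenascin C, rose by 3.02, Spp1, osteopontin, by 2.66, Col1a2 by 2.36 and Lama4 by 2.24, each with an adjusted p of 2.9e-05 or less. The other probes were at 5.87 for Tnc, 1.24 and 1.39 for Col1a2, and 0.81 and 2.31 for Lama4. At 3 dpi Tnc rose by 5.26 (4.76 to 5.77, 38.4-fold), Col3a1 by 3.74, Col1a2 by 3.5 and Nid1, which links laminin to collagen, by 3.33. Here the other probes were at 6.20 for Tnc, 1.54 for Col3a1, 2.46 and 3.18 for Col1a2, and 2.84 and 3.03 for Nid1. Between 1 and 3 dpi the largest rises were those of Tnc, 2.25, Col3a1, 2.02, Fn1, the fibronectin gene, 2.01, and Nid1, 1.63. Against Ctrl Fn1 was at −0.66 at 1 dpi, which was not called, and at 1.35 at 3 dpi. From 1 to 3 dpi the other probes of these genes were higher too, from 0.33 for Tnc to 2.70 for Fn1.

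Of 16 ligands on cells or in plasma, 15 were tested and Fgg was not. At 1 dpi 3 were higher and 1 lower, at 3 dpi 3 and 1, and between these times 0 and 1. The last counts were 0 and 2 without 1 dpi replicate 2 or 3 dpi replicate 1. The medians were 0.40, 0.21 and −0.13. Icam4, an erythroid adhesion molecule, fell by 1.51 at 1 dpi and by 1.68 at 3 dpi. Fga, a fibrinogen chain, rose by 1.57 at 1 dpi and fell by 1.52 from 1 to 3 dpi. Jam2 rose by 1.43 at 1 dpi and 1.03 at 3 dpi, the latter 0.97 without Ctrl replicate 1 and then not called. Icam1 rose by 1.1 at 1 dpi and was at 0.88 at 3 dpi, while Thy1 and Jam3 were at 0.95 and 0.39 at 1 dpi and were called at 3 dpi, with 1.5 and 1.26. The list of the latent TGF-beta complex had 9 tested genes of 9. In it 4 were higher and 0 lower at 1 dpi, 4 and 0 at 3 dpi, and 0 and 0 between. Its medians were 0.58, 0.80 and −0.22. Ltbp2 rose by 3.09 and 3.46, with its other probe at 0.93 and 0.34, Tgfb3 by 2.44 and 2.01, and Tgfb2 by 2.02 and 1.59, with its other probe at 2.63 and 3.04, at 1 and 3 dpi. Ltbp4 was called at 1 dpi only, with 1.30 against 0.80 at 3 dpi, and Lrrc32, which holds latent TGF-beta at the cell surface, at 3 dpi only, with 1.16 against 0.58 at 1 dpi.

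**Figure D4:**
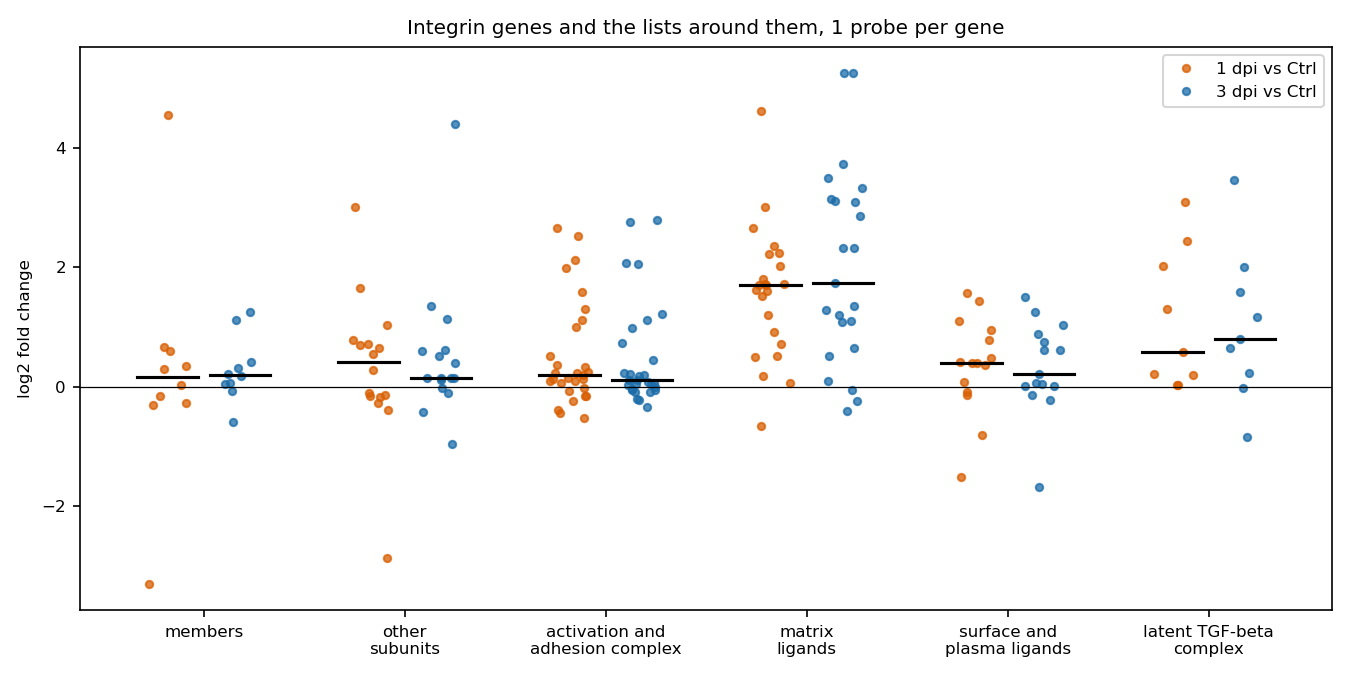
Log2 fold change of each tested gene of the integrin list and the lists around it, with 1 probe per gene, at 1 and 3 dpi against Ctrl. Black bars are medians, and points are spread sideways only to be seen.

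The bars of the matrix ligands lie furthest above 0 at both times, and the integrin genes themselves lie mostly near 0, with 1 gene far above and 1 far below at 1 dpi.

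Markers of other cell types moved in the same arrays, and in such bulk samples fewer cells of a type and less RNA per cell cannot be told apart. For the marker counts below, the share of all genes called higher was 12.4% at 1 dpi and 7.02% at 3 dpi. The share called lower was 2.88% and 1.82%. All 16 megakaryocyte markers were tested and well above background on every array, and 0 were called in any comparison, although 1 was higher at 3 dpi than at 1 dpi when 1 dpi replicate 1 was left out. Their mean level was 1.47, 1.32 and 1.29 in Ctrl, 1.34, 1.31 and 1.22 at 1 dpi, and 1.57 on each array at 3 dpi, and their summed level, on the linear scale as multiples of the 75th percentile, ran from 144 to 173, with Pf4 the highest signal.

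All 14 stromal markers were well above background on every array, and 11 were higher and 0 lower at 1 dpi, and 10 and 0 at 3 dpi. Their summed level was 11, 10 and 11 in Ctrl, 52.2, 45.0 and 48.9 at 1 dpi, and 98.4, 89.6 and 96.8 at 3 dpi, with Cxcl12 the highest signal. These sums rose with each step in time, as did Itgb5 and the ligands Tnc, Col1a2, Col3a1 and Nid1. The sums of the endothelial and of the macrophage and monocyte markers, given below, rose with each step as well. Col1a1, Col1a2 and Col3a1 are on both the stromal and the ligand list. Of 10 endothelial markers 5 were higher at 1 dpi and 7 at 3 dpi, with sums of 3.75, 3.37 and 3.46 in Ctrl, 7.31, 6.30 and 6.74 at 1 dpi, and 12.9, 10.8 and 11.1 at 3 dpi, and Stab2 the highest signal. On replicate 1 of Ctrl and of 1 dpi 9 of the 10 were well above background, and without Flt4, the dim one, 4 and 6 were higher.

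Of 15 macrophage and monocyte markers, 4 rose and 1 fell at 1 dpi, while 10 rose and 0 fell at 3 dpi. Their sums were 227, 201 and 199 in Ctrl, 314, 301 and 300 at 1 dpi, and 330, 321 and 322 at 3 dpi, and Ly6c2 had the highest signal. Of 12 neutrophil markers 3 were higher at 1 dpi and 0 at 3 dpi, with sums of 1110, 1200 and 1180 in Ctrl, 2030, 1890 and 1860 at 1 dpi, and 1250, 1120 and 1180 at 3 dpi, led by Mpo. All 12 were well above background on each of the 9 arrays. On every array the neutrophil sum was larger than that of the megakaryocyte markers.

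Of 10 B cell markers 9 were lower and 0 higher at both times, with sums of 29.6, 28 and 28.7 in Ctrl, 5.90, 5.66 and 5.83 at 1 dpi, and 5.74, 5.57 and 5.57 at 3 dpi, led by Cd79b. After irradiation 9 of the 10 were well above background on each array. Of 10 T and NK cell markers 2 were higher at 1 dpi (1 without Ctrl replicate 3) and 4 at 3 dpi, with sums of 31.2, 33.1 and 31.5 in Ctrl, 46.2, 42.9 and 43.2 at 1 dpi, and 40.5, 36.8 and 35.8 at 3 dpi, led by Nkg7.

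Of 7 dendritic cell markers 6 were tested and Xcr1 was not; 1 rose and 2 fell at 1 dpi, against 0 and 1 at 3 dpi, and the 1 dpi counts were 0 and 2 without Ctrl replicate 1 and 2 and 3 without Ctrl replicate 2. Their sums, led by Siglech, were 16.2, 31.0 and 31.7 in Ctrl, 50.1, 46.4 and 44.7 at 1 dpi, and 27.0, 24.1 and 23.4 at 3 dpi. Siglech rose by 1.08 at 1 dpi on the probe used, and its other probes were at −1.61 and 0.09. The mean level of the list, unlike its sum, was lower at 1 dpi (−1.28, −1.44 and −1.33) than in Ctrl (−0.90, −0.63 and −0.74). Of 6 mast cell and basophil markers 3 were higher at 1 dpi and 1 at 3 dpi. The count at 3 dpi was 3 without Ctrl replicate 2 and 2 without Ctrl replicate 3 or any single 3 dpi array. Their sums, led by Prss34, were 128, 113 and 106 in Ctrl, 371, 374 and 369 at 1 dpi, and 236, 223 and 215 at 3 dpi. Itgb7 followed the same order, as did the sums of the T and NK cell markers, so the order is not particular to 1 list. Of 10 erythroid markers 2 rose (1 without 1 dpi replicate 1) and 6 fell at 1 dpi, against 0 and 8 at 3 dpi. Their sums, led by Hba-a1, were 108, 88.7 and 91.7 in Ctrl, 248, 202 and 199 at 1 dpi, and 35.3, 34.7 and 32.2 at 3 dpi. The part of any of these cell types in the integrin levels or in their changes was not tested.

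**Figure D5:**
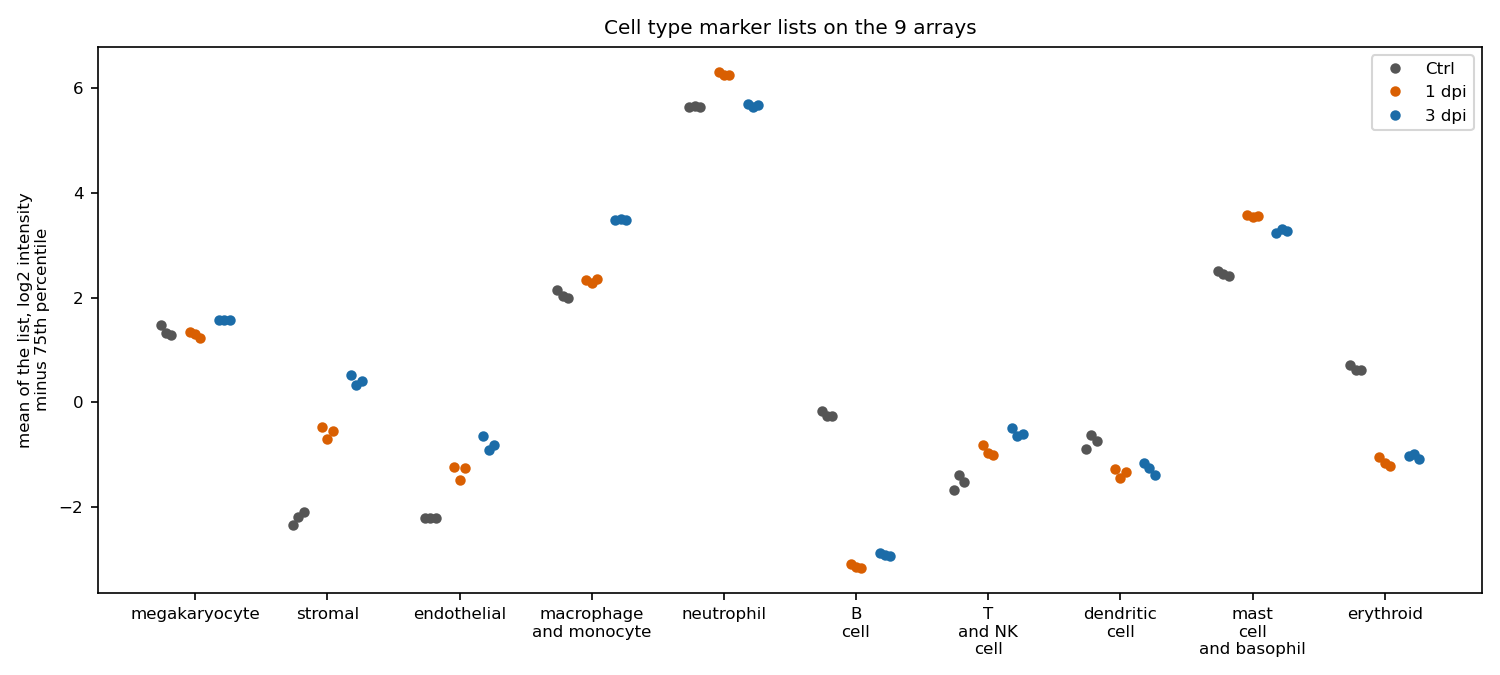
Mean level of each marker list on the 9 arrays, over the tested genes of the list with 1 probe per gene.

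The megakaryocyte points stay within a narrow band, the stromal and endothelial points climb from Ctrl to 3 dpi, and the B cell and erythroid points drop by 1 dpi and stay low. The macrophage points step up mainly at 3 dpi, and the mast cell points are highest at 1 dpi.

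For each integrin gene the 2 genes with the most similar course of the brightest probe over the 9 arrays were found by Pearson correlation, given as a description only, since arrays of a group resemble each other. Itga1 ran closest to an unnamed transcript (r = 0.9991) and Slco2a1 (0.9986), Itgb5 to Hopx (0.9951) and Gm32695 (0.9946), and Itgb8 to 1700018B24Rik (0.9970) and 5033421B08Rik (0.9964). For Itgav they were Spata6 (0.9968) and 5031439G07Rik (0.9964), for Itgb7 Klhdc4 (0.9973) and an Ensembl transcript without a symbol (0.9961), and for Itgb1 another such transcript (0.9937) and Cib1 (0.9902). Itga6 was nearest to BB759059 (0.9904) and C81189 (0.9872). The closest courses were less close for Itga5, an unnamed transcript (0.9628) and Supv3l1 (0.9624), Itgam, an unnamed transcript (0.9758) and Mtf2 (0.9649), and Itgb2, Mapkapk3 (0.9707) and Ddx51 (0.9413).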

How the data were processed

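The authors deposited, for each of 9 arrays, the spot intensity from Agilent Feature Extraction 10.7.1.1, background-subtracted but not scaled between arrays. They also deposited log2 values, with a single value per gene name; how these were made is not stated. Of 27275 gene names there, 27068 were on the array, and 27050 could be tied to 1 probe within 0.1 log2; they served as an alternative only.

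An array had 62976 spots, of which 3671 were controls. Outlier spots were left out, which removed 20 of 56605 probes, and spots of a probe were averaged. The 75th percentile that the software reports was subtracted from the log2 intensity of each array. A probe was tested if every array of some group had it well above background, which kept 44300. The number of arrays limits the precision.

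The comparisons used limma 3.58.1 under R 4.3.3, with a mean for each group and a shared spread, after the fit was tested on simulated data. Files were read with version 1.17.8 of data.table, pandas 2.3.3 and numpy 2.4.6, and figures drawn with matplotlib 3.10.9 in Python 3.11.15. Probe sequences and mm9 positions came from the array files.

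The members and lists were chosen with earlier results of these data known, so lists are described by counts and medians without a test. Named were all integrin probes, the partners Itga2b, Itgb3, Itga4 and Itgal, the 2 genes most like each member, and, of each pathway list and comparison, up to 4 called genes with the largest change, groups that did not overlap and no dim array in either. Alternatives covered scaling by the array median or quantiles, normexp background correction with an offset of 50, the filter, 1 probe per gene, the deposited values, no minimum fold change, the methods' test, the compared groups alone, slide and replicate blocks, and leaving out each array. The 75th percentile over all probes was added as an alternative after the data were seen.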

Additional observations from a re-analysis of the deposited data

Results flagged for a closer look

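The following values stood out because the 2 irradiated groups differed strongly from each other on a probe, and the tested probes of its gene differed in size or direction. On the Itga1 probe A_52_P518922 the change from 1 to 3 dpi was −3.30 log2. On the Itga1 probe A_55_P2738827 it was 1.81, in the opposite direction, and on the Itgb8 probe A_51_P479519 it was 3.38. All 3 were called and none reversed under any alternative. The step of A_55_P2738827 ran from 0.11, which was not called (adjusted p 0.29), to 2.11 over the alternatives. Its 1 dpi arrays were close to background, with only 1 of 3 well above it, so the size of this step is uncertain. On the other tested Itgb8 probe the same step was −0.15, and on the other 3 Itga1 probes it was 0.16 to 0.55, the direction of A_55_P2738827 but smaller. The cause was not tested.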

How the results depend on the processing

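The counts of called probes followed the strictness of the call. Of all probes, 6467, 3739 and 3891 were called at 1 dpi, at 3 dpi and between them, and 3, 3 and 3 integrin probes were. With no minimum fold change these became 24735, 14563 and 20441 of all probes and 14, 10 and 12 integrin probes, since only the adjusted p was then asked for. With the methods' t-test at an unadjusted p under 0.05 they were 23884, 16229 and 25072 and 15, 13 and 13. With the methods' t-test and Benjamini-Hochberg adjustment they were 19384, 10897 and 20883 and 13, 9 and 10.

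With normexp and quantile normalization the counts of all probes were 2182, 1455 and 1410, and with normexp and the 75th percentile 3277, 1654 and 1861. The deposited log2 table gave 3504, 2362 and 2559, from fewer values. Between 1 and 3 dpi, the absence of a filter gave 6931 and 1 probe per gene 2588, and probes well above background on all 9 arrays gave 2358 for 3 dpi against Ctrl. Array median scaling and quantile normalization each called 5 integrin probes at 1 dpi, beside 6271 and 5205 of all probes. With 1 probe per gene, 1 integrin probe was called at 3 dpi against Ctrl, beside 2587 of all. Leaving out 1 array at a time gave 2 to 5 called integrin probes for 3 dpi against Ctrl, beside 3421 to 3962 of all probes. Where no reason is given, the cause was not tested.

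The replicate block had the replicate number as a term. It called 6220, 3628 and 3774 of all probes at 1 dpi, at 3 dpi and between them, and 3 integrin probes in each comparison. The correlations between the deviations of same-numbered arrays were small, −0.09 to 0.13. With 3 arrays a group they cannot settle whether the numbers pair the arrays.

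The called changes kept their direction throughout. Over the planned and added alternatives, leaving out each array included, Itga1 A_52_P518922 rose by 4.01 to 4.93 at 1 dpi, and Itga1 A_52_P459929 by 0.94 to 1.40 at 1 dpi and 1.33 to 1.80 at 3 dpi. Itgb8 A_51_P479519 changed by −3.68 to −2.21 at 1 dpi, and Itgb5 A_51_P327796 by 0.98 to 1.19 at 3 dpi. Itga1 A_55_P2738827 ran from 0.38 to 1.14 at 3 dpi. The changes of A_52_P459929 at 1 dpi and of Itgb5 and A_55_P2738827 at 3 dpi thus fell short of 2-fold in some, and the cause was not tested. Of 26 values of at least 0.5 in size 2 reversed under some alternative, and of the 49 smaller ones 26 did. The larger ones were Itga1 A_55_P2738827 at 1 dpi and Itga1 A_52_P245620 between 1 and 3 dpi, both with normexp and the 75th percentile.

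Under array median scaling the reversed values for 1 dpi against Ctrl were −0.21 for Itgav A_55_P2637536, −0.20 for Itgb1 A_66_P113059, −0.0571 for Itgb1 A_55_P2902886, −0.33 for Itgb2 A_51_P262208 and −0.0558 for Itga1 A_52_P245620, those for 3 dpi against Ctrl were −0.0719 for Itga6 A_65_P04508, −0.13 for Itga6 A_55_P2015670, −0.10 for Itgb2 A_51_P262208 and −0.0849 for Itgb8 A_51_P479519, and those for 3 dpi against 1 dpi were 0.0236 for Itga5 A_52_P364140 and 0.0467 for Itgb8 A_52_P164473.

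Under quantile normalization the reversed values for 1 dpi against Ctrl were −0.0583 for Itgav A_52_P102916, −0.0748 for Itgav A_55_P2637536, −0.17 for Itgb2 A_51_P262208 and −0.0752 for Itga1 A_52_P245620, those for 3 dpi against Ctrl were −0.0595 for Itga6 A_65_P04508, −0.11 for Itga6 A_55_P2015670 and −0.0765 for Itgb2 A_51_P262208, and those for 3 dpi against 1 dpi were 0.001037 for Itga5 A_52_P364140 and 0.0572 for Itgb8 A_52_P164473.

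With normexp and quantile normalization the reversed values for 1 dpi against Ctrl were −0.00464 for Itgav A_52_P102916, −0.0516 for Itgav A_55_P2637536, −0.17 for Itgb2 A_51_P262208 and −0.0659 for Itga1 A_52_P245620, those for 3 dpi against Ctrl were −0.0176 for Itga6 A_65_P04508, −0.0981 for Itga6 A_55_P2015670 and −0.079 for Itgb2 A_51_P262208, and those for 3 dpi against 1 dpi were 0.00582 for Itga5 A_52_P364140 and 0.0571 for Itgb8 A_52_P164473.

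With normexp and the 75th percentile the reversed values for 1 dpi against Ctrl were 0.18 for Itgav A_55_P2717997, 0.33 for Itga6 A_65_P04508, 0.42 for Itgb1 A_52_P69236, 0.38 for Itga1 A_55_P2738827, −0.0718 for Itgb2 A_51_P262208 and 0.27 for Itgb8 A_52_P164473, and those for 3 dpi against 1 dpi were −0.0798 for Itgav A_55_P2717997, −0.29 for Itga6 A_65_P04508, −0.13 for Itgav A_55_P2637536, −0.19 for Itga6 A_52_P324934, −0.22 for Itga1 A_55_P2734577 and −0.0108 for Itga1 A_52_P245620.

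In the deposited log2 table the reversed values for 1 dpi against Ctrl were −0.0584 for Itgav A_52_P102916 and −0.17 for Itgb2 A_51_P262208, those for 3 dpi against Ctrl were −0.0765 for Itgb2 A_51_P262208, and those for 3 dpi against 1 dpi were 0.00236 for Itga5 A_52_P364140.

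With slide as a block, which leaves the same values as dropping Ctrl replicate 1, the reversed values for 1 dpi against Ctrl were 0.0762 for Itga6 A_55_P2015670, and those for 3 dpi against Ctrl were −0.0674 for Itgb8 A_51_P479519.

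With the 75th percentile taken over all probes, an alternative chosen after seeing the data, only Itgb2 A_51_P262208 at 1 dpi against Ctrl reversed, to −0.0008955.

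Leaving out single arrays reversed some values at least once. For 1 dpi against Ctrl, leaving out 1 array at a time gave −0.16 to 0.57 for Itga1 A_52_P245620, −0.0599 to 0.0762 for Itga6 A_55_P2015670, −0.0968 to 0.0283 for Itga6 A_65_P04508, −0.0169 to 0.0858 for Itgb2 A_51_P262208 and −0.32 to 0.19 for Itgb8 A_52_P164473. For 3 dpi against Ctrl, leaving out 1 array at a time gave −0.0542 to 0.0951 for Itga6 A_55_P2015670, −0.002999 to 0.11 for Itgb2 A_51_P262208, −0.23 to 0.61 for Itgb8 A_51_P479519 and −0.48 to 0.0401 for Itgb8 A_52_P164473. For 3 dpi against 1 dpi, leaving out 1 array at a time gave −0.0634 to 0.0622 for Itga6 A_52_P324934, −0.0478 to 0.0734 for Itga6 A_55_P2015670, −0.0419 to 0.10 for Itgav A_55_P2637536, −0.0653 to 0.11 for Itgb1 A_55_P2902886 and −0.0232 to 0.0554 for Itgb2 A_51_P262208. The cause was not tested for any of these reversals.

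Signal over background limits the dim probes: 2 of the 4 Itgb8 probes were not tested, and the Itga1 probe that fell at 1 dpi was well above background on 1 of 3 arrays there. With 3 arrays a group, wide intervals such as that of Itgb8 at 3 dpi leave changes of 2-fold undetected. Only Ctrl arrays were on the first slide, and a difference between slides was checked only by leaving that array out. Array probes report on short stretches, and which transcripts or related genes each probe also binds was not tested.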
